A study of Homo sapiens with 10 samples.

Results

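The genes described here are the zinc finger genes of human chromosome 19 that carried spliced reads in A549 cells. A member was a protein-coding gene on chromosome 19 whose symbol is ZNF followed by digits alone and whose introns were joined by at least 15 split reads, summed over the 10 libraries. Of 240 such genes in the annotation, 86 reached that minimum, 20 had between 1 and 14 split reads and 134 had no listed intron. They stand among 10259 genes of all kinds with at least 15 split reads, beside 109 ZNF genes of other chromosomes.

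ZNF genes of this kind encode proteins that bind DNA through arrays of C2H2 zinc fingers. Many also carry a KRAB domain, which recruits the corepressor TRIM28 and, through it, the histone methyltransferase SETDB1 and heterochromatin proteins, and many of these proteins silence transposable elements. Chromosome 19 holds the largest clusters of the family, built by repeated tandem duplication, and the fingers of one protein are typically encoded in a single large last exon.

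The series asked how splicing changes when RNA polymerase II is slowed. Poly(A)+ RNA was sequenced. A549, an established human lung adenocarcinoma line, received DMSO as vehicle, α-amanitin, which binds RNA polymerase II and impedes its elongation, or DRB, which blocks the kinase activity that productive elongation needs. The 5 groups were DMSO, α-amanitin at 1 and at 2 μg/mL for 24 h, and DRB at 10 and at 25 μg/mL, with 2 libraries each, and the sources used here give no length of exposure to DRB or DMSO. Nothing in the labels says that the libraries of a group came from separate cultures, and the study's methods speak of bioreplicates without describing them, so that p-values measure only the spread between these libraries, which may be technical. All groups shared 1 cell line and 1 set of DMSO libraries, and both doses of each drug were compared with those same controls.

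Each library was a list of introns and exons with the reads that span them. The libraries held between 2899344 and 6498515 split reads over introns, the fewest in replicate 1 at the higher DRB dose, where 45513 introns were listed against 60620 in replicate 2 and 74739 to 90955 in the other 8 libraries. An intron with no other reads at its sites entered a list only from 11 split reads. A gene at 0 here is therefore a gene without a listed intron, which can hide up to 10 reads for each of its introns. Of the A549 markers examined, 7 of 10 were listed, led by ALDH1A1 and NQO1, whereas no intron of KRT19, EPCAM or CDH1 was listed in any library. Of 11 markers of fibroblasts, leukocytes and endothelium, 9 were at 0 in every library, LYZ had 6 reads in 1 library, and COL1A1, a fibroblast marker, had 677 and 59 in DMSO, 85 and 11 at the lower DRB dose and 70 and 0 at the higher dose. The summed level of the A549 markers was taken with TMM factors, which rescale the library totals. It was 6178 and 5598 per 1000000 in DMSO, 3554 and 3671 at the lower DRB dose and 7993 and 8566 at the higher dose. These values are not RPM, which below stands for split reads scaled to 1000000 in a library. TMM and the totals differ at the higher DRB dose, so that these sums do not establish a rise of the markers there. The part of COL1A1 or of the A549 markers in the results below was not tested.

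The members were short in introns and sparse in reads. Their median number of introns in the canonical transcript was 3, against 9 over protein-coding genes with reads, and a median of 86.8% of the coding sequence lay in the last coding exon, against 10.8%. In 81 of 86 members more than 50% of the coding sequence lay there. The lowest shares were 6.07% in ZNF414, 9.49% in ZNF653 and 12.7% in ZNF507. Per canonical intron, the members had a median of 37.3 split reads over all 10 libraries, against 172 over 9627 protein-coding genes with introns. The 10 members with the most reads per intron were ZNF574 with 492, ZNF146 with 479, ZNF580 with 460, ZNF121 with 384, ZNF544 with 323, ZNF317 with 289, ZNF581 with 213, ZNF787 with 199, ZNF480 with 198 and ZNF791 with 172.

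Of the 389 introns listed for the members, 385 began with GT and ended with AG in the GRCh37 sequence and 4 began with GC. In 14 members, among them ZNF181, ZNF587, ZNF302 and ZNF850, at least 1 intron had a junction whose 74 flanking exon bases recurred in another gene with at most 2 mismatches. Such introns held 5.33% of the members' split reads, and the values of those genes are uncertain to that extent. Of the genes treated below, 165 of 185 reads of ZNF181, 217 of 305 of ZNF587, 94 of 138 of ZNF302 and 32 of 163 of ZNF850 lay on them.

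The members together took a larger share of split reads in the DRB libraries than in the DMSO libraries. The share was 301 and 291 RPM in the DMSO libraries, 672 and 582 at the lower DRB dose, and 708 and 700 at the higher dose. With α-amanitin it was 309 and 410 at the lower dose, and 325 and 320 at the higher dose. All 4 DRB libraries lay above all 6 others, and the means rose from 296 ± 7.09 (SD, n = 2) in DMSO to 627 ± 63.9 and 704 ± 5.97 in the DRB groups. With 2 libraries against 2, an exact permutation test cannot give a p below 0.333, so that no test was made on the share. In bulk libraries fewer cells and less RNA per cell cannot be told apart, and a share can rise because other genes fell.

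The DRB groups also stayed above DMSO on introns that were listed in every library. That set was itself chosen by listing, since an intron that fell out of any library is left out, so that a part of listing is not excluded. On the 16 member introns listed in all 10 libraries, out of 30613 such introns in all, and with RPM scaled to the reads on such introns alone, the members had 116 and 113 RPM in DMSO, 188 and 170 at the lower DRB dose, and 213 and 197 at the higher dose. The α-amanitin libraries gave 125 and 135 at the lower dose and 107 and 117 at the higher dose, the latter on both sides of the DMSO values. The ratio of the means to DMSO was thus smaller than over all listed introns. Without the 5 members with the most reads, the mean share was 179 ± 0.801 in DMSO, 442 ± 56.7 at the lower DRB dose and 466 ± 23.9 at the higher dose (SD, n = 2).

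ZNF genes of other chromosomes followed another order. They took 1383 and 1369 RPM in DMSO, 2088 and 2099 at the lower DRB dose, but 955 and 1063 at the higher dose. The 2 sets of ZNF genes therefore moved the same way against DMSO at the lower dose of DRB and in opposite directions at the higher one, a difference that was not tested.

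**Figure D1:**
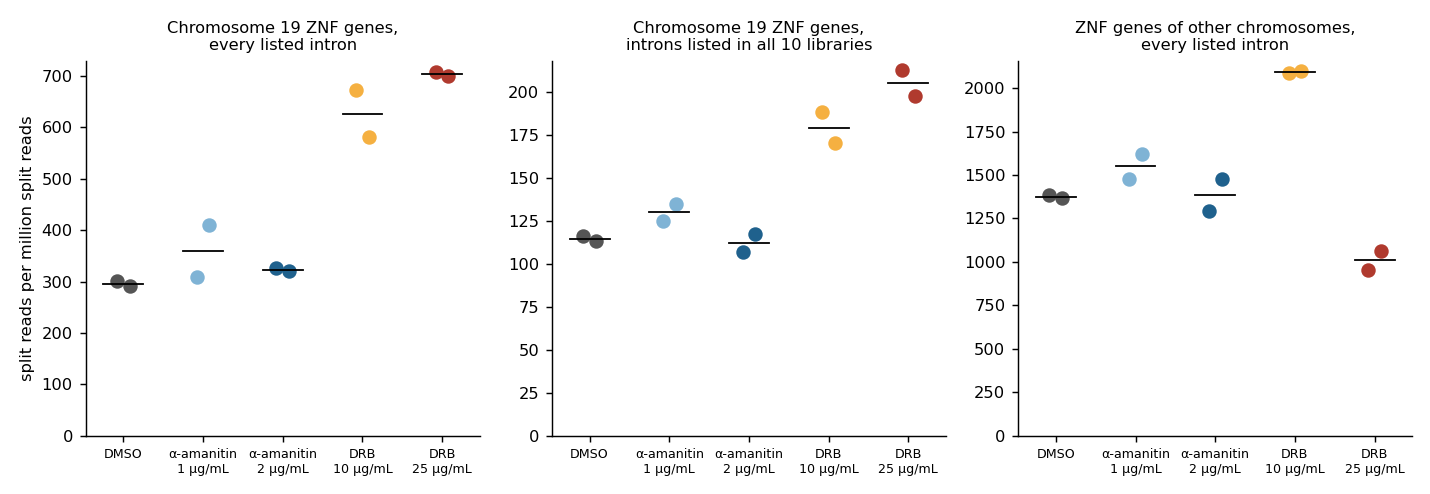
RPM, the split reads scaled to 1000000 in a library, in each library (points) with the mean of the 2 libraries (bars), for the members over every listed intron, for the members over introns listed in all 10 libraries, as a share of the reads on such introns, and for ZNF genes of other chromosomes. The members' share was 301 and 291 in DMSO and between 582 and 708 in the 4 DRB libraries, while genes of other chromosomes were at 955 and 1063 at the higher DRB dose.

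More members came into the lists with DRB, and at the higher dose some left them, in shares near those of all genes. In DMSO 26 of 86 members had listed introns in both libraries and 40 in neither. With DRB the corresponding numbers were 53 and 14 at the lower dose and, at the higher dose, 35 and 24. Of all 10259 genes with at least 15 reads, 8362 were listed in both DMSO libraries and 1092 in neither. Only a gene in neither could be gained and only a gene in both could be lost, so that gains and losses are given on those bases. Between the DMSO and the lower-dose libraries 13 of the 40 members went from neither library to both, against 349 of the 1092 genes. The other way went 0 of the 26 members, against 165 of the 8362 genes. At the higher dose 12 of the 40 members were gained in this sense, against 260 of the 1092 genes. Of the 26 members 7 were lost, against 2023 of the 8362 genes. On these bases the members' shares with DRB were near those of all genes, so that neither movement was particular to the members. With α-amanitin 6 of the 40 members were gained at each dose, against 249 of the 1092 genes at the lower dose and 373 at the higher. Of the 26 members 1 and 2 were lost at the lower and higher dose, against 31 and 89 of the 8362 genes.

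**Figure D2:**
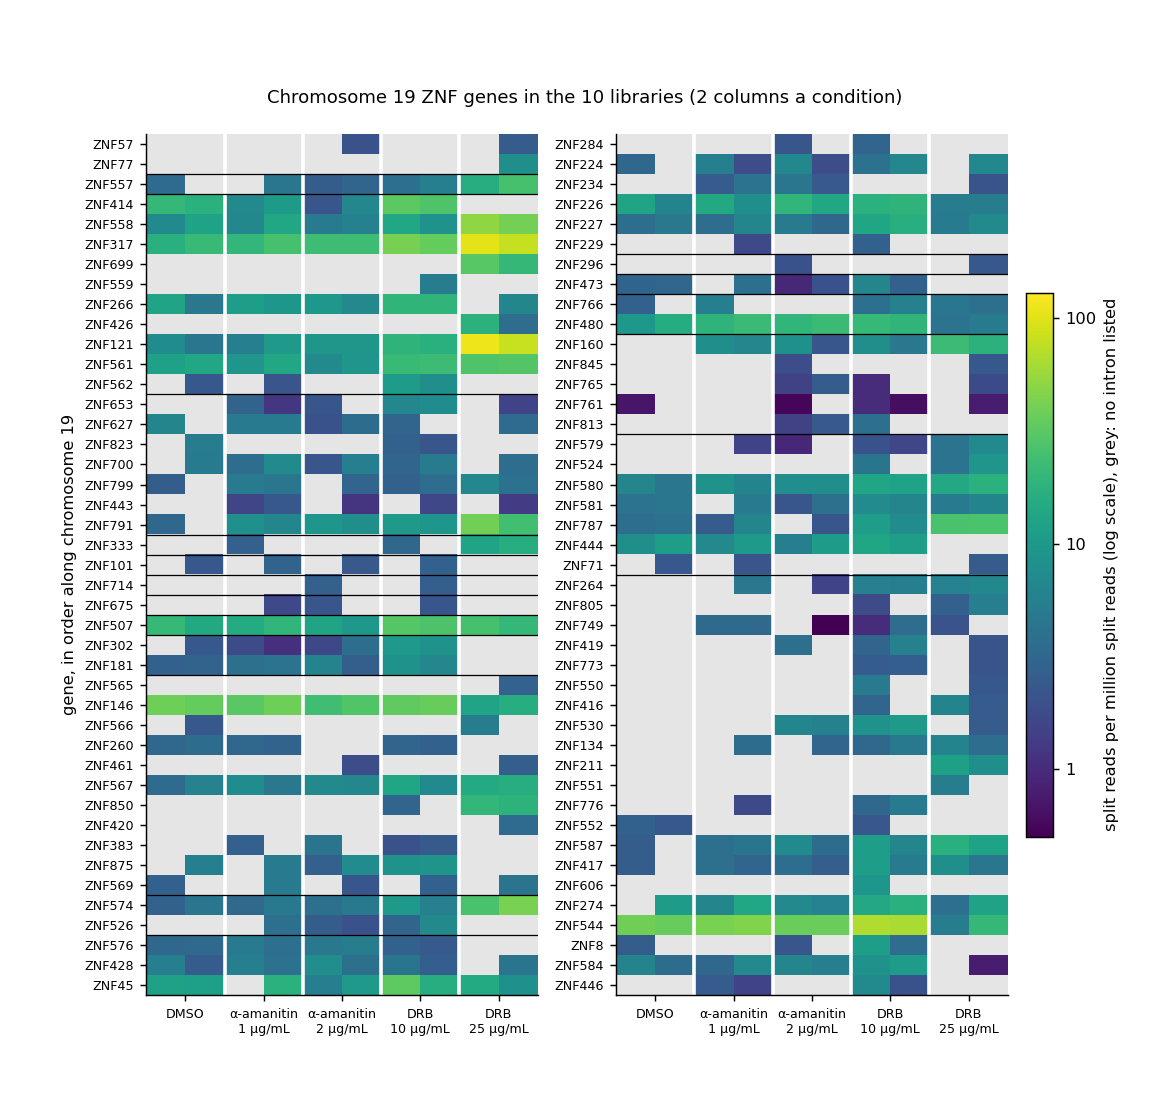
RPM (split reads scaled to 1000000 in a library, colour, log scale) of the 86 members in the 10 libraries, 2 columns a condition, in their order along chromosome 19, with lines where neighbours lie over 0.5 Mb apart and grey where no intron was listed. ZNF317 and ZNF121 are the brightest rows at the higher DRB dose, ZNF544 is brightest in each library of the other conditions, and the grey cells of DMSO are fewest at the lower DRB dose.

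The members could be compared without the listing limit where an intron was present in all 6 DMSO and DRB libraries. This held for 15 members, and since a gene that fell out of a library at either end could not enter, such a set is no sample of all 86. At the lower DRB dose 5 of the 15 were higher and 0 were lower at an adjusted p under 0.05 (limma voom, Benjamini-Hochberg over 4725 genes), against 16.3% of all genes tested this way that were higher and 17.0% that were lower. At the higher dose 6 were higher and 2 lower, against 30.5% and 31.4%. Their median log2 fold change was 0.75 and 0.64, where the medians of all genes were 0.01 and −0.03. The 5 calls at the lower dose were not made over all listed introns, where their adjusted p values lay between 0.108 (ZNF121) and 0.218 (ZNF544). With all introns and each unlisted one set to the 10 reads it can hide, ZNF317 and ZNF580 were called at that dose (adjusted p = 0.0381 and 0.00961) and ZNF121, ZNF544 and ZNF787 were not (adjusted p = 0.0797, 0.0508 and 0.077).

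ZNF121, a C2H2 zinc finger gene at chr19:9671005-9695180 (GRCh37, minus strand), had the largest change. On its 1 intron of this kind it had 12 and 21 split reads in DMSO, 32 and 40 at the lower DRB dose and 135 and 171 at the higher dose. The 3 groups did not overlap in RPM. Its log2 fold change was 1.08 ± 0.32 (SE, adjusted p = 0.0153) at the lower dose and 3.67 ± 0.28 (adjusted p = 9.18e-09) at the higher dose.

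ZNF317, which encodes a KRAB zinc finger protein and lies in the same cluster as ZNF121, carried 4 such introns. They held 73 and 65 reads in DMSO, 122 and 121 at the lower DRB dose and 201 and 280 at the higher dose. Here too each dose stood above the one before it in both libraries, with log2 fold changes against DMSO of 0.75 ± 0.21 (adjusted p = 0.012) and 2.26 ± 0.20 (adjusted p = 5.08e-08).

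Genes without a KRAB domain were among those that rose. ZNF580, a short gene with a single intron in the canonical transcript, had 27 and 21 reads in DMSO, 52 and 62 at the lower DRB dose and 42 and 91 at the higher dose. Its log2 fold changes were 1.19 ± 0.28 (adjusted p = 0.00387) and 1.88 ± 0.28 (adjusted p = 1.37e-05), and its 2 DRB groups overlapped in RPM. ZNF787 had 16 and 19, 31 and 36, and 46 and 96 reads in the same order, with log2 fold changes of 0.86 ± 0.30 (adjusted p = 0.0364) and 2.41 ± 0.28 (adjusted p = 8.37e-07). For ZNF787 the 3 groups were separate, as for ZNF121.

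ZNF574, whose whole coding sequence lies in 1 exon, rose at the higher dose. It had 12 and 21 reads in DMSO, 39 and 28 at the lower DRB dose and 77 and 220 at the higher dose. The log2 fold change was 3.52 ± 0.36 (adjusted p = 2.12e-07) at the higher dose and 0.94 ± 0.41 (adjusted p = 0.0844) at the lower dose, and both DRB libraries were above both DMSO libraries at each dose.

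ZNF558, a KRAB zinc finger gene, gave a less even picture. It had 12 and 20 reads in DMSO, 15 and 13 at the lower DRB dose and 38 and 24 at the higher dose. In RPM on such introns, which are scaled by totals, replicate 2 at the higher dose (5.08) fell within the DMSO values of 3.58 and 5.34. The log2 fold change at the higher dose, which rests on TMM scaling, was 1.32 ± 0.40 (adjusted p = 0.00814). Over all its listed introns the gene had 31 and 60 reads in DMSO and 151 and 209 at the higher dose (adjusted p = 0.00266).

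Both members that fell at the higher DRB dose on these introns were among those with the most reads in DMSO. ZNF146, an unusual member in that its protein consists almost solely of fingers, had 144 and 145 reads in DMSO, 131 and 150 at the lower DRB dose and 23 and 62 at the higher dose. Its log2 fold change was −0.10 ± 0.19 (adjusted p = 0.723) at the lower and −1.38 ± 0.24 (adjusted p = 7.68e-05) at the higher dose. ZNF544, a KRAB zinc finger gene, had 61 and 57, 105 and 121, and 15 and 41 reads. It rose by 0.87 ± 0.23 (adjusted p = 0.00663) at the lower dose and fell by 0.69 ± 0.28 (log2 −0.69, adjusted p = 0.0412) at the higher dose, so that it lay on opposite sides of DMSO at the 2 doses, without overlap of the groups on these introns. Over all listed introns neither fall was called (adjusted p = 0.0683 for ZNF146 and 0.114 for ZNF544). With unlisted introns at 10 reads, ZNF146 was lower (log2 −0.58, adjusted p = 0.0122) and ZNF544 was not called (log2 −0.08, adjusted p = 0.706).

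The remaining 7 of the 15 did not pass the test at either dose. They were ZNF507, ZNF561, ZNF45, ZNF581, ZNF480, ZNF226 and ZNF227, the last 2 KRAB zinc finger genes of the same cluster in 19q13. ZNF507, which encodes a zinc finger protein without a KRAB domain, had 57 and 59 reads in DMSO, 63 and 72 at the lower DRB dose and 37 and 58 at the higher dose, with log2 fold changes of 0.16 ± 0.22 and 0.16 ± 0.23. The TMM scaling used here and the total of reads differ at the higher DRB dose. Over all genes and all introns the median log2 fold change there was −1.01 with TMM and −1.49 with the totals, so that the values of ZNF507 and ZNF45 (0.03 ± 0.28) lie above 0 with TMM and below it in RPM. ZNF226 (0.32 ± 0.38 with TMM) had 5.54 and 2.54 RPM at that dose, on both sides of its 4.47 and 3.74 in DMSO. The median of 0.64 for the 15 members is likewise a TMM value, as is the median of all genes beside it.

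**Figure D3:**
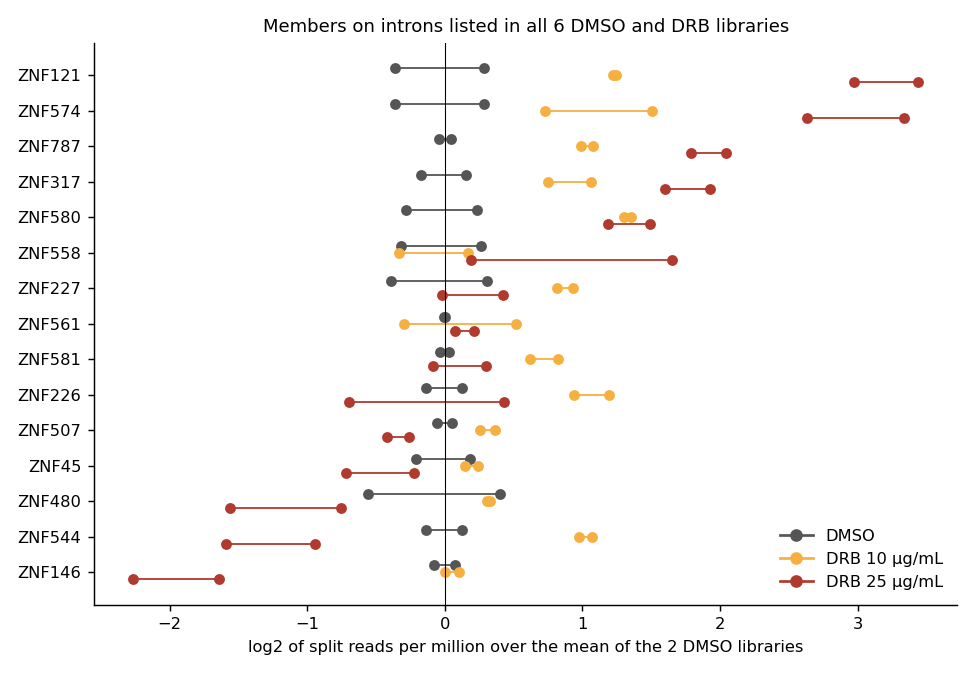
RPM on introns listed in all 6 DMSO and DRB libraries, as log2 over the mean of the 2 DMSO libraries, for 15 members (points: libraries, lines: the span of a group). These are scaled by totals, without TMM. ZNF121 and ZNF574 lie farthest to the right at the higher DRB dose, ZNF146 farthest to the left, and ZNF544 is right of 0 at the lower dose and left of it at the higher dose.

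Over all listed introns, with an unlisted intron counted as 0, 64 of the 86 members passed the filter on low counts (at least 10 reads in 2 of the 6 libraries and at least 15 in all). Members that entered only through the group where they were high had to differ, so that neither the counts nor the medians below are evidence about the members as a set. At the lower DRB dose 9 members (14.1%) were higher and 0 lower (limma voom, 9475 genes), against 8.24% of all genes that were higher and 6.65% that were lower. Of 557 other protein-coding genes of chromosome 19, 13.1% were higher and 5.75% lower. Each of those 9 was at 0 in both DMSO libraries, so that no fold change is given. ZNF160, a KRAB zinc finger gene, was at 0 and 0 in DMSO, had 31 and 23 reads at the lower DRB dose and 66 and 93 at the higher dose. It also had 35 and 43 reads at the lower dose and 44 and 13 at the higher α-amanitin dose.

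The other 8 were ZNF264, ZNF134, ZNF526, ZNF776, ZNF579, ZNF653, ZNF446 and ZNF530. They had between 8 and 49 reads in each library at the lower DRB dose, with adjusted p values from 0.011 to 0.03. When every unlisted intron was set to the 10 reads it can hide, none of the 9 passed the test, and the value of ZNF160 turned to −0.03. Leaving out any 1 of the 4 DMSO and DRB libraries also left 0 members called, so that their entry into the lists is what was measured.

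At the higher DRB dose 24 of the 64 members tested (37.5%) were higher and 7 (10.9%) lower, against 20.2% and 41.2% of all genes. Of 557 other protein-coding genes of chromosome 19, 34.8% were higher and 24.2% lower, so that a large share of higher genes was not particular to the members. Of the 24, 11 were at 0 in both DMSO libraries and 8 were listed in every library of both groups. With unlisted introns at 10 reads, 86 members could be tested, of which 21 were higher and 1 lower (14% and 22.9% of all genes), and 16 of those 21 were among the 24. The fill gives each unlisted intron the same 10 reads whatever the depth of the library. A member can therefore be called higher through filled reads alone, as ZNF181 was (below), and these counts are no evidence about the members as a set. Without replicate 1 or without replicate 2 at the higher dose, 8 members were called in all.

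Over all introns ZNF121 had 32 and 21 reads in DMSO, 73 and 84 at the lower DRB dose and 329 and 418 at the higher dose. Its log2 fold change at the higher dose was 4.49 ± 0.41 (adjusted p = 0.000635), and 2.60 with unlisted introns at 10 reads (adjusted p = 9.66e-08). The gene was thus above DMSO at the higher dose under either reading of the lists, whereas its log2 values at the lower dose, 1.47 and 0.45, did not pass (adjusted p = 0.108 and 0.0797). ZNF791, a KRAB zinc finger gene, had 14 and 0 reads in DMSO, 39 and 46 at the lower DRB dose and 115 and 126 at the higher dose. Its log2 fold change with unlisted introns at 10 reads was 1.84 (adjusted p = 1.48e-06).

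Others rose from little or nothing in DMSO. ZNF699, a KRAB zinc finger gene of the cluster of ZNF317, was at 0 in the 8 libraries of DMSO, α-amanitin and the lower DRB dose and had 89 and 104 reads at the higher dose. ZNF850 had 0 and 0 reads in DMSO, 12 and 0 at the lower DRB dose and 57 and 94 at the higher dose, and ZNF333 had 0 and 0, 13 and 0, and 37 and 83. Neither had over 12 reads in any α-amanitin library. ZNF557 had 15 and 0 reads in DMSO, 15 and 27 at the lower dose and 46 and 134 at the higher dose, and ZNF587 had 11 and 0, 44 and 31, and 49 and 65. With unlisted introns at 10 reads, ZNF699, ZNF850 and ZNF557 still passed the test (adjusted p = 0.000106, 0.00437 and 0.0011), whereas ZNF333 (adjusted p = 0.0657) and ZNF587 (adjusted p = 0.323) did not.

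ZNF567, a KRAB zinc finger gene in 19q13, was listed in every library. It had 15 and 28 reads in DMSO, 53 and 35 at the lower DRB dose and 43 and 82 at the higher dose. Against DMSO its log2 fold change was 0.93 at the lower dose (adjusted p = 0.294) and 2.24 ± 0.52 at the higher dose (adjusted p = 0.0132). The 4 α-amanitin libraries held 33, 30, 38 and 39 reads.

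The 7 members that were lower at the higher DRB dose had all but left the lists. ZNF414, a zinc finger gene without a KRAB domain, had 88 and 83 reads in DMSO, 127 and 140 at the lower DRB dose and 0 and 0 at the higher dose. ZNF444, whose protein carries a SCAN domain, had 34 and 53, 52 and 56, and 0 and 0. Both were also listed in each α-amanitin library, with 12 to 67 reads for ZNF414 and 30 to 66 for ZNF444. ZNF181, ZNF260, ZNF473 and ZNF576 likewise had between 12 and 17 reads in both DMSO libraries and 0 in both at the higher dose. ZNF473 encodes a component of the U7 complex, which processes the ends of histone messages.

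ZNF584, a KRAB zinc finger gene, was the seventh, with 26 and 17 reads in DMSO, 34 and 53 at the lower DRB dose and 0 and 4 at the higher dose. With unlisted introns at 10 reads, its log2 value at the higher dose was 0.46 instead of a fall, and that of ZNF414 was −0.33 (adjusted p = 0.123). None of the 7 passed the test as lower in that setting, in which ZNF146 was the 1 member that did. ZNF181 passed it as higher (log2 0.55, adjusted p = 0.0236), although its values at the higher dose were filled reads alone, so that this is no measured rise. Hence the loss from the lists was measured, and its size was not.

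The 2 doses of DRB were also set against each other directly. Of 64 members tested, 14 were higher at the higher dose than at the lower and 17 lower, against 19.5% and 43.7% of all genes. Of the other protein-coding genes of chromosome 19, 31.4% were higher and 30% lower. The balance of the members turned with unlisted introns at 10 reads, with 27 of 86 higher and 3 lower, against 16.9% and 24.5% of all genes. Filled reads alone can raise that count of higher members, so that it is no evidence of a rise. Leaving out 1 library at a time gave between 10 and 20 called in all. Of the 14, 9 were listed in every library of both groups, among them ZNF121 (log2 fold change 3.02 over all introns, adjusted p = 0.000903). ZNF333, ZNF699 and ZNF850 were higher too, from 0 to 13 reads in each library at the lower dose. Of the 17, 13 were at 0 in both libraries at the higher dose, ZNF414 and ZNF444 among them, while ZNF544 fell by 1.95 on the log2 scale (adjusted p = 0.0274), from 263 and 319 reads to 15 and 106.

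With α-amanitin no member passed the test at either dose (limma voom, 53 members among 9627 genes tested, background 0.0% at the lower dose, and 6.37% at the higher dose, of which 2.45% higher and 3.92% lower). At the lower dose 5 members and at the higher dose 8 had an unadjusted p under 0.05, and limma trend called 0 and 1. The lowest adjusted p was 0.468 at the lower dose and 0.0809 at the higher dose. Nor did a member pass between the 2 doses, where 3 had an unadjusted p under 0.05, limma trend called 0 and the lowest adjusted p was 0.334.

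On introns listed in all 6 DMSO and α-amanitin libraries, 18 members could be tested, and at the higher dose 1 was higher and 1 lower, against 8.02% and 8.95% of all genes. ZNF480, a KRAB zinc finger gene, had 37 and 66 reads in DMSO, 81 and 116 at the lower dose and 99 and 108 at the higher dose. Its log2 fold change at the higher dose was 0.74 ± 0.23 (adjusted p = 0.0444). ZNF414 had 32 and 22, 12 and 30, and 12 and 12 reads, and fell by 1.41 ± 0.36 on the log2 scale at the higher dose (adjusted p = 0.0246). The genes that rose most with DRB gave small values here, with a log2 fold change at the higher dose of 0.01 ± 0.38 for ZNF121, 0.27 ± 0.20 for ZNF317 and 0.29 ± 0.32 for ZNF574.

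The drugs were also compared directly. In a fit of all 10 libraries, 76 members were tested, and 10 were higher and 1 lower at the lower DRB dose than at the higher α-amanitin dose, against 9.15% and 11.6% of all genes. At the higher DRB dose 23 were higher and 6 lower than at the higher α-amanitin dose, against 19.3% and 40.6%, or 60.0% in either direction. Of 578 other protein-coding genes of chromosome 19, 13.1% were higher and 14.2% lower at the lower DRB dose, and 33.7% and 28.2% at the higher DRB dose. When unlisted introns were set to 10 reads, 43 of 86 were higher and 1 lower, against 22.9% and 26.5%, and here too filled reads alone can raise the count of higher members. Of those 23, 8 were at 0 in both α-amanitin libraries and 12 were listed in every library of both groups. ZNF121 had 51 and 56 reads at the higher α-amanitin dose against 329 and 418 at the higher DRB dose, and ZNF317 126 and 137 against 297 and 413. The doses and exposure times of the drugs differ, so that the comparison is of these groups and not of the agents at matched strength.

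The members fell into 19 groups along the chromosome when neighbours over 0.5 Mb apart were separated. The largest contribution at the higher DRB dose came from the 10 members between ZNF414 and ZNF562, at chr19:8574562-9785776. They held 25.6% and 26.5% of all member reads in DMSO, 23.3% and 24.7% at the lower DRB dose and 48.7% and 37.2% at the higher dose. Their RPM rose to 3.93 times the DMSO mean, from 6 members called higher and 1, ZNF414, called lower, so that the genes of the group did not move as one. The group of 21 members at the end of the long arm, from ZNF264 to ZNF446, rose to 3.03 times DMSO at the lower dose and 1.49 times at the higher dose. The 9 members from ZNF576 to ZNF229 were at 2.08 times and 0.849 times, and at the higher dose their 2 libraries (24.8 and 33.4 RPM) overlapped those of DMSO (40.5 and 28.1). These ratios use 0 for unlisted introns, and no test was made on them.

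The promoters of the members were searched on both strands for short motifs. Of 86 members, 79 had a RefSeq promoter (GRCh38.p14, 250 bases before to 50 after the start, the first entry of each gene). The letters CCGGAAG or their complement CTTCCGG, the core to which ETS factors bind, were in 34 of the 79 (43.04%), in 45.2% of the promoters of ZNF genes on other chromosomes, in 45.0% of 131 unlisted or nearly unlisted ZNF genes of chromosome 19, in 21.9% of 8023 expressed protein-coding genes and in 14.4% of all 15318. The match was thus as common among ZNF genes with hardly any reads as among the members. It was present in ZNF580, ZNF787, ZNF558 and ZNF544 and not in the windows of ZNF121, ZNF317, ZNF574 or ZNF146, so that genes of either direction were found with and without it. Windows of 23 bases on the strand of the gene, with the matched letters in capitals, are given for 1 member that rose at both doses of DRB (ZNF580, chr19:55640982-55641004), for ZNF558 (chr19:8832345-8832367), which rose at the higher dose, and for ZNF544 (chr19:58228907-58228929), which rose at the lower and fell at the higher.
ZNF580: ctcgcgcgCTTCCGGccggcgcc
ZNF558: cgcgcgagCCGGAAGgggacgtg
ZNF544: gccggccaCCGGAAGcaccgcca

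Exon inclusion was tested in the members, and the main test made calls at the higher DRB dose alone. Inclusion was measured as Ψ, the reads that join an exon to its neighbours over the sum of those reads and 2 times the reads that skip it. For the 2 doses of DRB, 27 exons of 10 members could be tested, those for which each of the 6 libraries had a sum of 10 or more and for which joining and skipping reads each reached 10 over the 6. Several exons of 1 gene share their reads, so that the 27 exons rested on 20 distinct sets of reads.

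Against DMSO, 19 exons were less and 2 more included at an adjusted p under 0.05 (quasi-binomial model with moderated dispersion, 10702 exons), against 40.8% and 6.92% of all exons tested, 47.7% in all. Counted by distinct reads, 12 sets in 7 genes were less included and 2 more. The median change in Ψ over the 20 sets was −0.35. In 8 of the 12 the exon had no skipping read listed in DMSO, and since the lowest value listed above 0 was 3, up to 2 skipping reads a library can be hidden there. Such an exon passed the filter only through skipping reads listed with DRB and could not be called more included. Neither the counts nor the median are therefore evidence about the members as a set. Each of these calls was lost when a library of either group was left out, leaving 0 called in each case. Adding the replicate number to the model as a block also left 0 called.

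Splice sites of the exons discussed are given from GRCh37, since they are where the reads divide. For ZNF45 (minus strand) they lie at chr19:44436840-44436862 and chr19:44436750-44436758, for ZNF274 at chr19:58698294-58698316 and chr19:58698407-58698415, for ZNF507 at chr19:32847502-32847524, for ZNF558 (minus strand) at chr19:8941565-8941587 and chr19:8941440-8941448, and for ZNF121 (minus strand) at chr19:9678379-9678401 and chr19:9678318-9678326. Intronic bases are in lower case and exonic bases in capitals, 5′ to 3′ on the strand of the gene. For ZNF146 both acceptors are shown, the first at the start of the annotated exon (chr19:36726541-36726563) and the second downstream (chr19:36726891-36726913), which the skipping reads used.
ZNF146 annotated acceptor: ttctttgtactccattttagAAG
ZNF146 downstream acceptor: tgtacctcatctgttaccagAGT
ZNF45 acceptor: tcctatctctctcccattagACT
ZNF45 donor: TGAgtaagt
ZNF274 acceptor: gtctcttttcctttgagcagAAC
ZNF274 donor: CAGgtgaga
ZNF507 acceptor: tatttctttccactttttagAGT
ZNF558 acceptor: ctttttttttttttcttgagACC
ZNF558 donor: CAGgcaagt
ZNF121 acceptor: cactgtctcccatcacctagATG
ZNF121 donor: ATGgtgagt

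ZNF146 gave the most reads. Its annotated exon at chr19:36726561-36726770, before the coding sequence, was joined by 118 and 120 reads in DMSO and 99 and 114 at the lower DRB dose, with no skipping read listed in those libraries or in the 4 α-amanitin libraries. At the higher dose it was joined by 15 and 42 reads and skipped by 10 and 12, so that Ψ went from 1 in both DMSO libraries to 0.532 ± 0.147 (SD, n = 2, adjusted p = 0.0117). All skipping reads ran from the donor of the preceding exon to the downstream acceptor, which lies in the last exon of the gene and is the start of no annotated exon. The joining reads ran from that same donor to the annotated acceptor, and none was listed on a donor of the exon. The reads thus divided between the annotated and the downstream acceptor.

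ZNF45, a KRAB zinc finger gene of the 19q13 cluster, had its exon 3 of 10 at chr19:44436756-44436842 (minus strand), before the coding sequence, skipped at the higher DRB dose. That exon was joined by 15 and 20 reads in DMSO, and by 20 and 20 at the lower dose, where replicate 2 also had 4 skipping reads. At the higher dose it had no listed joining read and 11 and 10 skipping reads, so that Ψ went from 1 to 0 in both libraries (adjusted p = 0.0117). For this exon the lists of the higher dose thus held no read that included it.

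ZNF274, whose protein recruits SETDB1 to the 3′ ends of other zinc finger genes, lost a coding exon. Exon 4 of 9 at chr19:58698314-58698409, 96 bases long, was joined by 13 and 24 reads in DMSO, 21 and 31 at the lower DRB dose and between 12 and 32 in the α-amanitin libraries, with no skipping read listed in any of these 8. At the higher dose it was joined by 0 and 6 reads and skipped by 6 and 9 (Ψ 0.125 ± 0.177, SD, n = 2, adjusted p = 0.0162). The length of that exon is a multiple of 3.

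ZNF507 showed reads that skip a coding exon. The annotated exon at chr19:32847522-32850699, 3178 bases long and partly coding, shares its acceptor with canonical exon 4. It was joined by 27 and 27 reads in DMSO and 18 and 27 at the lower DRB dose, with none listed that skip it. At the higher dose 10 and 17 reads joined it and 11 and 6 skipped it (Ψ 0.449 ± 0.194, SD, n = 2, adjusted p = 0.0159). The split reads of ZNF507 as a whole did not pass the test at that dose. For ZNF317 a coding exon of 96 bases at chr19:9268656-9268751 went from 21 and 35 joining and 0 and 3 skipping reads in DMSO to 24 and 56 joining and 40 and 30 skipping (Ψ 0.927 ± 0.103 to 0.357 ± 0.178, SD, n = 2, adjusted p = 0.0456), while its split reads rose.

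ZNF561, a KRAB zinc finger gene between ZNF121 and ZNF562, accounted for most of the repeated exons. Its coding exon of 89 bases at chr19:9728767-9728855 was joined by 18 and 23 reads in DMSO with no skipping read listed, and by 13 and 34 with 26 and 23 skipping at the higher DRB dose (adjusted p = 0.031). A set of 8 annotated exons with a common acceptor shared 1 set of reads, 16 and 21 joining in DMSO, and 10 and 24 joining with 6 and 4 skipping at the higher dose. Its alternative exon of 148 bases at chr19:9728297-9728444 was used in few reads in DMSO, 3 and 5 against 12 and 15 skipping, and in 0 against 34 and 43 at the higher dose (adjusted p = 0.0246).

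The exons that were more included lay in genes that also rose. In ZNF121 an exon of 96 bases at chr19:9678324-9678419 (minus strand), between coding exons, was joined by no listed read in DMSO, against 17 and 8 skipping. At the lower DRB dose 13 and 13 reads joined it and 17 and 26 skipped it, and at the higher dose 42 and 51 joined and 85 and 92 skipped. Ψ thus went from 0 to 0.238 ± 0.0542 and 0.208 ± 0.0134 (SD, n = 2, adjusted p = 0.141 and 0.0247). It was 0 in both libraries at the lower α-amanitin dose and 0.16 ± 0.0566 at the higher dose (adjusted p = 0.156). A shorter exon of 58 bases with the same donor, whose acceptor is the one printed, had an adjusted p of 0.0633 at the higher dose. All listed reads that joined the 96-base exon lay on that common donor, and none lay on an acceptor of its own. The acceptor of the 58-base exon held 23 and 50 reads at the higher dose. No read was thus specific to the 96-base exon, and its joining reads may belong to the shorter one.

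ZNF558 moved in both directions within 1 gene. Its exon of 122 bases at chr19:8941446-8941567 (minus strand), before the coding sequence, was joined by 10 and 7 reads and skipped by 9 and 8 in DMSO, and joined by 28 and 54 and skipped by 8 and 9 at the higher DRB dose. Ψ went from 0.331 ± 0.0373 through 0.515 ± 0.0208 at the lower dose to 0.693 ± 0.0803 (SD, n = 2, adjusted p = 0.529 and 0.0398). The donor of that exon begins with GC, as printed. An exon of 390 bases at chr19:8932118-8932507, between coding exons, was joined by 4 and 6 reads in DMSO, 3 and 4 at the lower dose and none listed at the higher dose, where 17 and 26 skipped it (Ψ 0.339 ± 0.126 to 0, adjusted p = 0.0178). As a whole it is no annotated exon, since only 1 of its ends matches the annotation. Listed introns joined it at its donor alone, so that its other end has no listed read.

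**Figure D4:**
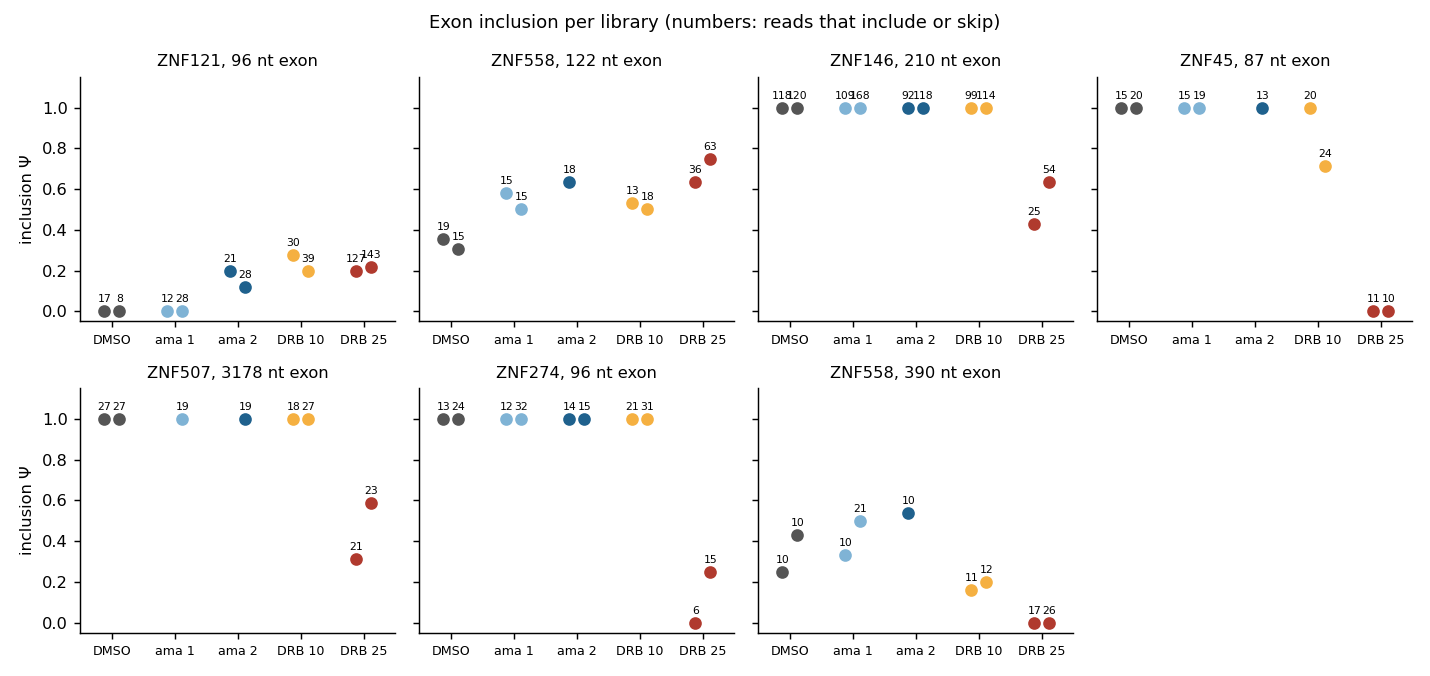
Inclusion Ψ of 7 exons in each library (points, 2 a condition, ama: α-amanitin, doses in μg/mL), with the number of reads that join or skip the exon above each point, and no point where none was listed. For ZNF146, ZNF507 and ZNF274 every library with reads outside the higher DRB dose is at 1 and both libraries at the higher dose are below 0.7, while ZNF121 and the 122-base exon of ZNF558 lie higher with DRB than in DMSO.

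At the lower DRB dose no exon of the members passed the test (quasi-binomial model, background 0.028%). An unadjusted p under 0.05 was reached by 3 of 27 exons (19.5% of all exons), limma on log odds called 2 and the lowest adjusted p was 0.113. At the lower and higher α-amanitin dose 33 exons of 12 members were tested and 0 passed (background 0.0% and 0.0298%). There 2 and 6 exons had an unadjusted p under 0.05 (9.32% and 21.5% of all exons), limma on log odds called 0 and 1, and the lowest adjusted p was 0.471 and 0.145.

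Exons with intermediate inclusion and the most skipping reads were those of ZNF544 and ZNF121. The ZNF544 exon of 49 bases at chr19:58743138-58743186, before the coding sequence, was joined by 8 and 7 reads and skipped by 32 and 29 in DMSO. The lower DRB dose gave 0 and 0 joining and 52 and 59 skipping reads, and at the higher dose it was joined by 5 and 14 and skipped by 3 and 16. Its Ψ was thus 0.109 ± 0.0024 in DMSO, 0 at the lower and 0.379 ± 0.106 at the higher dose (SD, n = 2), with adjusted p values of 0.113 and 0.0515. The last exon of the ZNF544 canonical transcript, at chr19:58772217-58775010, was joined by 5 and 17 and skipped by 13 and 17 reads in DMSO and by 17 and 24 and 25 and 19 at the lower dose.

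Reads that cross an exon and intron boundary without splicing were unevenly spread over the members. They were 11.98% and 7.66% of the members' split and unspliced reads in DMSO, against 6.36% and 6.48% over all genes. In replicate 1 of DMSO, however, 121 of the members' 176 unspliced reads came from ZNF146 alone. With DRB the shares at the lower dose were 13.2% and 10.7% against 7.62% and 6.67%, and at the higher dose 13.2% and 10.4% against 12.3% and 13.2%. Replicate 2 at the higher dose thus had a lower share in the members than over all genes, and the members' shares at both doses overlapped those of DMSO.

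No member passed the test on unspliced reads (quasi-binomial model, 13, 13, 12 and 12 members tested at the lower and higher α-amanitin dose and the lower and higher DRB dose, backgrounds 0.0%, 0.258%, 0.403% and 3.39%). An unadjusted p under 0.05 was reached by 0, 0, 0 and 1 (5.04%, 9.57%, 9.25% and 22.4% of all genes), limma on log odds called 0 in each, and the lowest adjusted p was 0.862, 0.564, 0.534 and 0.117. ZNF317 gave the lowest of these, with 6 and 0 unspliced reads in DMSO, 3 and 0 at the lower DRB dose and 121 and 155 at the higher dose. ZNF544 had 18 and 35 in DMSO, 154 and 102 at the lower dose and 9 and 22 at the higher dose. In ZNF146 the 2 DMSO libraries held 121 and 3, so that replicates could differ more than groups. ZNF587 and ZNF302 had 0 and 0 in DMSO and 12 and 22, and 54 and 17, at the lower dose.

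The partners through which KRAB zinc finger proteins act were examined in a list of 28 genes, of which 27 were tested. At the lower DRB dose 1 was higher and 0 lower, and at the higher dose 1 was higher and 18 lower, against 8.24% higher and 6.65% lower among all genes at the lower dose and 20.2% and 41.2% at the higher dose. The list's median log2 fold change at the higher dose was −1.40, and −1.01 over all genes. These values count unlisted introns as 0, and ATF7IP, TASOR and EHMT1 had 0 reads in both libraries at the higher dose. No values with unlisted introns at 10 reads are given for the list, so that the sizes of its falls are uncertain. The corepressor TRIM28 had 4578 and 5529 reads in DMSO and 2549 and 5954 at the higher dose, with a log2 fold change of 0.36 (adjusted p = 0.134). SETDB1, the methyltransferase that TRIM28 recruits, had 201 and 149 reads in DMSO, 309 and 338 at the lower dose and 23 and 11 at the higher dose, and fell by 2.74 on the log2 scale (adjusted p = 0.0122). The one that rose at the lower dose was CBX5, a heterochromatin protein, and the one at the higher dose was CHD3, a chromatin remodeller. With α-amanitin 0 of 27 passed at the lower dose, and at the higher dose MORC2 alone was higher and 0 lower.

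A list of 19 genes of messenger RNA decay, 18 of them tested, gave 1 higher and 0 lower at the lower DRB dose. At the higher dose 2 were higher and 10 lower, against the same shares of all genes, with a median of −2.16 there. Unlisted introns count as 0 here too, so that the sizes of these falls are uncertain in the same way. CNOT1, the scaffold of the CCR4-NOT deadenylase, fell by 3.23 on the log2 scale (adjusted p = 0.00264), from 3050 and 2747 reads to 68 and 359. BTG2 and ZFP36L1, which promote deadenylation, rose. ZFP36L1 had 120 and 84 reads in DMSO and 333 and 449 at the higher dose (log2 fold change 2.65, adjusted p = 0.00239). At the lower and higher α-amanitin dose 0 were higher and 0 and 2 lower.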

How the data were processed

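Poly(A)+ RNA-seq of 10 A549 libraries was analysed from the tables of introns and exons that the authors deposited, 1 a library. Per the file headers and the methods of the study, STAR aligned the reads to GRCh37, and split, unspliced, joining and skipping reads were counted with IPSA. The submitters' processing notes name STAR version 2.7.3a, whereas the methods of the study name an earlier one. These counts stand in a text field beside the ratio psi. In all 1993591 psi values checked, the ratio recomputed from the counts differed by at most 0.005. The members and gene lists were chosen with earlier results of these data known.

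Introns were matched to genes of GENCODE v44lift37 (120952 of 126404 to 1 gene, 1695 shared by genes and left out, 3757 without a gene). An intron absent from a table counted as 0 reads. Because the counts sit in a text field, limma (version 3.58.1, R 4.3.3) with voom and TMM factors was used in place of a negative binomial test, with DMSO and the 2 doses of a drug in 1 fit, a filter of 10 reads in 2 libraries and 15 over the fit, and Benjamini-Hochberg adjustment at 0.05. Voom adds 0.5 to a count, so that fold changes of low genes depend on that offset. Exon and unspliced reads were fitted by a quasi-binomial model with limma's moderated dispersion. Scripts were tested on simulated data. Libraries of a group were compared with each other (chi-square of 7.05 to 17.2 per degree of freedom), and no pair agreed within sampling noise. Named members were, at an adjusted p under 0.05 without overlap and with a mean of at least 20 reads, up to 8 that rose and 8 that fell against DMSO (4 and 4 between doses), the 10 with the most reads per intron, up to 5 exons a direction or, with none called, the 5 with the most skipping reads, the 5 with the most unspliced reads, ZNF567 and ZNF584. Other members named, such as those of the 15 on introns listed in every library, were chosen after their values were seen. Alternatives were the scaling, the filter, the libraries in the fit, the introns summed, limma trend and the replicate number as a block. The fill at 10 reads and the direct comparisons between drugs were added after seeing the data. The depth limits the members more than most genes, at a median of 37.3 reads per intron over 10 libraries.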

Additional observations from a re-analysis of the deposited data

How the results depend on the processing

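The limits rest on listing and depth. An unlisted intron can hold 10 reads, the members are sparse, and 2 libraries a group leave 1 library able to decide a call. Counts of members called, in either direction, were 9 at 10 μg/mL DRB against DMSO, and 5 with limma trend, 1 with a mean of at least 20 reads, 5 on introns listed in every library, 1 with only the 2 groups compared, 3 with unlisted introns at 10 reads and 0 to 0 when 1 library was left out. At 25 μg/mL the count was 31, and 18 with a mean of at least 20 reads, 8 on introns listed in every library and 8 to 30 without 1 library, with 8 when either replicate at that dose was left out. Between the DRB doses it was 31, and 15 with a mean of at least 20 reads, 8 on introns listed in every library, 30 with unlisted introns at 10 reads (27 higher and 3 lower in place of 14 and 17) and 10 to 20 without 1 library. At 2 μg/mL α-amanitin it was 0, and 3 with all 10 libraries, 1 with limma trend, 2 on introns listed in every library and 1 with unlisted introns at 10 reads. In the direct comparison with 2 μg/mL α-amanitin it was 11 at 10 μg/mL DRB, and 4 with a mean of at least 20 reads, 4 on introns listed in every library, 4 with only the 2 groups, 6 with unlisted introns at 10 reads and 1 to 4 without 1 library. At 25 μg/mL it was 29, and 16, 9 and 44 with a mean of at least 20 reads, introns listed in every library and unlisted introns at 10 reads, and 15 to 27 without 1 library. Exons called at 25 μg/mL DRB were 21, and 2 with a minimum of 30, 8 with only the 2 groups and 0 to 0 without 1 library. At 10 μg/mL they were 0, and 1 with all 10 libraries and 2 with limma on log odds, and at 2 μg/mL α-amanitin 0, and 1 with limma on log odds.

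In the order DMSO, lower and higher α-amanitin dose, lower and higher DRB dose, the mean share was 115, 130, 112, 179 and 205 RPM on introns listed in every library, and 179, 233, 216, 442 and 466 without the 5 members with the most reads. With unlisted introns at 10 reads the log2 value turned to −0.029 for ZNF160 at 10 μg/mL DRB, to 0.46 for ZNF584 at 25 μg/mL, and between the doses to 0.79 for ZNF302, 0.030 for ZNF444 and 0.17 for ZNF584, in each case because introns at 0 received reads.

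Libraries with the same replicate number deviated together among DMSO, α-amanitin and 10 μg/mL DRB (correlations of 0.151 to 0.383) and not with 25 μg/mL DRB (−0.01 to 0.02). With 2 libraries a group and no such correlation in that group, the numbers were not taken to pair the libraries, though they may mark a shared deviation in the other 4 groups. With the replicate block 7 members were called at 10 and 28 at 25 μg/mL DRB, and 0 exons at 25 μg/mL.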
